A study of Mus musculus with 11 samples.

Results

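The genes of the mitochondrial respiratory chain and of the ATP synthase were taken from the count files by name: every symbol that begins with Nduf, Sdha, Sdhb, Sdhc, Sdhd, Uqcr or Atp5, or with Cox4 to Cox8 followed by a letter. This gave 92 of 23284 genes. They were 36 subunits of complex I, 4 of complex II, 8 of complex III, 19 of complex IV and 15 of complex V, 8 assembly factors, and 2 genes that match by name alone. Those 2 were Cox4nb, an older symbol of Emc8, a gene of the membrane protein insertion machinery of the endoplasmic reticulum, and Atp5s, whose product is not an established subunit of the enzyme. Ndufa4 and Ndufa4l2 were placed with complex IV, since the NDUFA4 protein is a subunit of cytochrome c oxidase despite its name.

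Poly(A) RNA was sequenced from 11 mouse tumors of small cell lung cancer, a carcinoma with neuroendocrine features. All 11 tumors carried the same genotype by their labels, given as Rb, p53, TRE-MYCN and LSL-RTTA: altered Rb and p53 alleles, a MYCN transgene that responds to doxycycline, and a doxycycline-dependent activator that Cre recombination switches on. The MYCN ON group held 7 tumors kept on doxycycline, and the MYCN OFF group held 4 tumors from which doxycycline had been removed for 7 days. The comparison asks which genes follow MYCN in the tumors. The sources used here do not give the promoter that drives the activator, the source of Cre or the age of the animals. No label ties the tumors to separate mice, and the p-values therefore reflect only how much these tumors vary. MYCN and doxycycline were present or absent together, so their effects cannot be told apart, and doxycycline is known to act on the mitochondrial ribosome. In bulk tumors, fewer cells of a type and less RNA per cell cannot be told apart either.

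Complexes I and II pass electrons from NADH and succinate to ubiquinone, complex III passes them on to cytochrome c, and complex IV reduces oxygen. Complexes I, III and IV pump protons, and complex V, the ATP synthase, uses the returning protons to make ATP. Most subunits are encoded in the nucleus, as all genes described here are, and dedicated assembly factors put them together with subunits made inside the mitochondrion. MYC proteins, of which MYCN is the member typical of neural and neuroendocrine tumors, are known to bind the DNA sequence CACGTG, called an E-box. The factors NRF1 and GABP are known regulators of nuclear genes of the respiratory chain. The genes of the mitochondrial genome were not analysed here.

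Mycn, measured as reads on the mouse gene, stood at 14.5, 15.7, 13 and 5.63 CPM in the MYCN OFF tumors and at 36.5 (lowest), 109 (median) and 171 (highest) CPM in the MYCN ON tumors. CPM are counts scaled to a common library size by TMM factors, which align the libraries on the bulk of their genes. The log2 fold change was 3.06 with a standard error of 0.47 (edgeR adjusted p = 0.00139), and the groups did not overlap. Libraries held 10324089 to 13123838 counted reads in the MYCN ON group and 8951733 to 12190957 in the MYCN OFF group. Their make-up differed. Summed markers of alveolar type II and club cells reached 32220, 22.5, 2743 and 4933 CPM in MYCN OFF tumors 1 to 4, against 1.77 to 3231 CPM in MYCN ON tumors, with MYCN ON tumors 3 and 5 at 882 and 3231. Summed skeletal and cardiac muscle markers were at 568, 825, 516 and 65.2 CPM in the MYCN OFF tumors, and at 64.6 to 187 CPM in the MYCN ON tumors apart from tumor 5, at 503. Leukocyte markers summed to 84.5 to 492.5 CPM in MYCN OFF and 40.4 to 124 CPM in MYCN ON tumors, and endothelial markers to 152.5 to 869 against 76.6 to 379 CPM. Markers of alveolar type I cells reached 77.8 to 1583 CPM in MYCN OFF and 39.3 to 292 CPM in MYCN ON, those of pericytes and smooth muscle 196 to 575 against 130 to 383.5 CPM, and those of brown fat 11.8 to 37.0 against 32.5 to 149 CPM. Most of the brown fat sum was 1 gene, Fabp4, with a log2 fold change of 1.82. Dio2 and Cidea, at -0.45 and -0.15, were not called. Ucp1, Adipoq and Plin1 had too few reads to be tested and were highest in MYCN ON tumor 4. Neuroendocrine markers were abundant in every tumor, at 1671 to 8046 CPM in MYCN OFF and 2221 to 4128 CPM in MYCN ON. None of these marker genes was at 0 in all tumors, and their part in the results below was not tested beyond the models that include a lung or a muscle score.

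Of the 92 genes, 90 had enough reads to be tested. The exceptions, Cox7b2 and Cox8c, are isoforms of complex IV subunits known from testis; Cox8c had no read in any tumor. In MYCN ON tumors 31 of the 90 were higher and 4 were lower at an adjusted p below 0.05 in edgeR's quasi-likelihood test with Benjamini-Hochberg adjustment over all 15237 genes tested. The share that was higher, 34.4%, stood beside 16% of all genes tested, and the share that was lower, 4.44%, beside 13.4%. The median log2 fold change of the 90 genes was 0.31, a ratio of 1.24, against 0.00 over all genes. Complex V had the highest median of the complexes, 0.55, and 8 of its 15 genes were higher. The counts were 10 of 36 in complex I, 2 of 4 in complex II, 3 of 8 in complex III, 6 of 17 in complex IV and 2 of 8 among the assembly factors, with medians of 0.21, 0.45, 0.22, 0.24 and 0.31. Log2 fold changes were above 0 for 71 of the 90 genes, and for 50.1% of all genes. The values of all MYCN ON tumors lay above those of all MYCN OFF tumors for 25 of the 90 genes, where 11.4% of all genes did so, and below them for 2, where 5.41% of all genes did so.

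**Figure D1:**
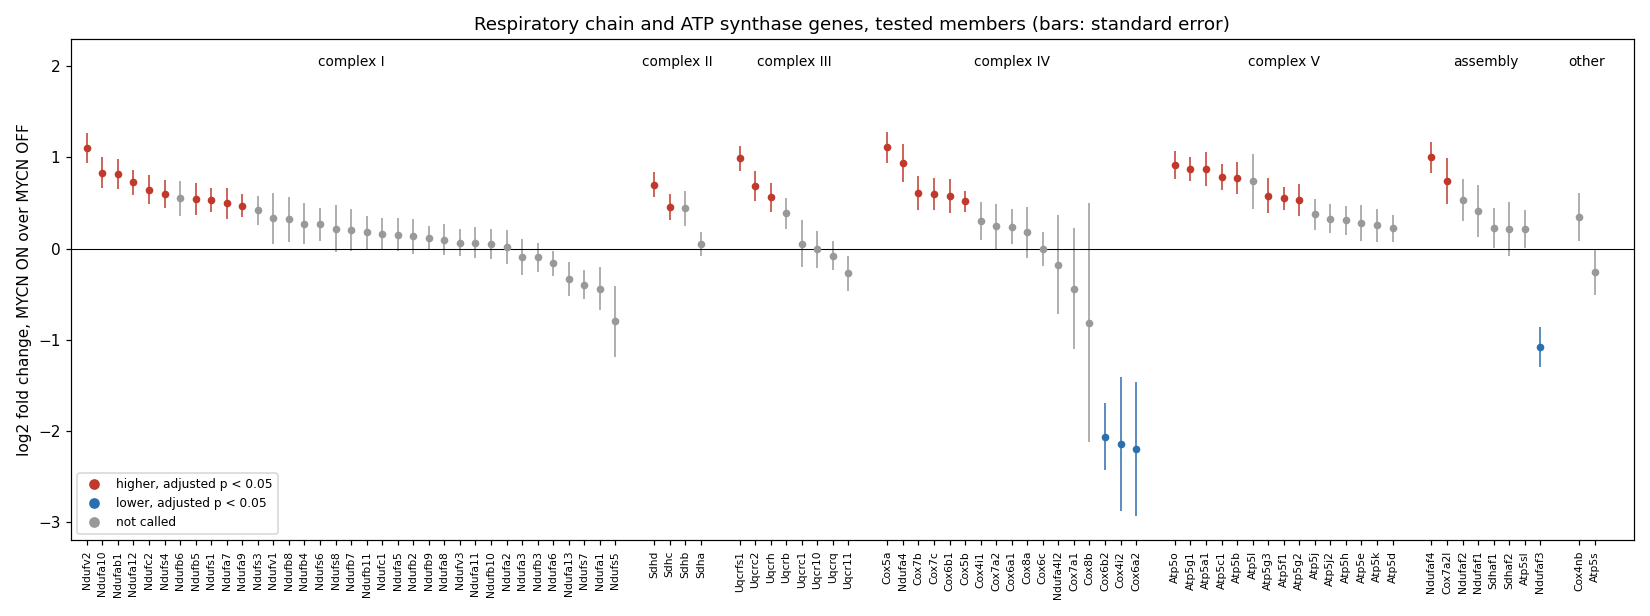
Log2 fold change of the tested genes, except 1 that is not shown, MYCN ON (7 tumors) over MYCN OFF (4 tumors), with its standard error as a bar, by complex and sorted within it. Red and blue points are the 31 higher and 4 lower genes at an edgeR adjusted p below 0.05 with TMM scaling; under library totals 11 were higher and 9 lower.

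The count depended on how libraries were scaled. The scaling factors themselves differed between the groups, at 0.835 to 1.01 in MYCN ON and 1.09 to 1.22 in MYCN OFF tumors. With RLE factors 23 genes were higher and 5 lower, with upper quartile factors 15 and 6, and with library totals alone 11 and 9. Of all genes, 14.1%, 11.1% and 8.64% were higher and 15.2%, 19% and 22% lower, in that order. The median of all genes was -0.31 by library totals and -0.21 with upper quartile factors. Log2 fold changes above 0 then numbered 42 and 55 of 90. A change of scaling moves all genes by nearly the same amount, so the distance of 0.30 between the median of the 90 genes and that of all genes is fixed by construction and is no sign of stability. By library totals the medians of complexes I, III and IV and of the assembly factors were below 0, at -0.12, -0.09, -0.09 and -0.0022, and that of complex V was 0.24.

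**Figure D2:**
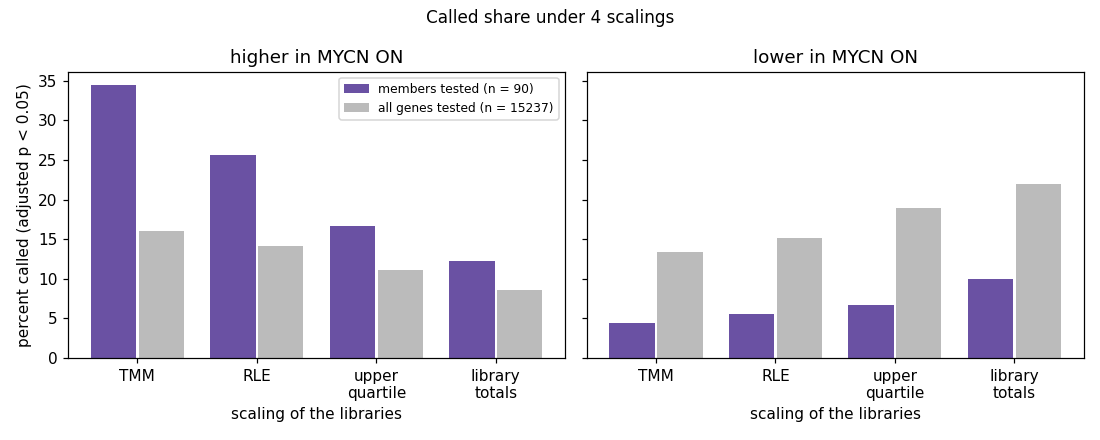
Percent of the 90 tested genes (purple) and of all 15237 tested genes (grey) called higher (left) and lower (right) in MYCN ON tumors (adjusted p below 0.05, edgeR), under 4 scalings of the libraries. The purple bars for higher genes fall from 34.4% with TMM factors to 12.2% with library totals, and the grey bars from 16% to 8.64%; for lower genes purple stays under grey throughout, at 4.44% to 10% against 13.4% to 22%.

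Leaving out MYCN ON tumor 1, which had the smallest scaling factor, left 19 higher genes (21.1%), where 12.1% of all genes were higher. Leaving out any other tumor left 22 to 31 (24.4% to 34.4%), where 10.9% to 19.1% of all genes were higher. Of the 31 higher genes, 19 passed in each of the 11 fits without 1 tumor. With a lung marker score in the model 22 genes (24.4%) were higher, 21 of them among the 31, and 2 (2.22%) were lower. Of all genes, 7.56% were higher and 3.44% lower with that score. With a muscle score 22 were higher, all among the 31, where 8.49% of all genes were higher. The 10 genes that passed in every one of these fits and under all 4 scalings were Ndufv2, Ndufa10, Ndufab1, Uqcrfs1, Cox5a, Atp5a1, Atp5c1, Atp5g1, Atp5o and Ndufaf4, so that every complex except II was represented. Of the 4 lower genes, Cox6b2 and Ndufaf3 passed in all of them. How many of all genes passed in each left-out fit, or in all these fits, was not counted. In the 6 tumors with Sftpc, the surfactant protein C gene of alveolar type II cells, under 100 CPM (5 MYCN ON and 1 MYCN OFF), edgeR called 0 of all 15741 genes tested, and the unadjusted p was below 0.05 for 28.9% of the chain genes against 14.5% of all genes. This subset held only 1 MYCN OFF tumor. The median log2 fold change in that edgeR fit was 0.40 for the chain genes and 0.04 for all genes. In the 5 tumors above that level (2 MYCN ON and 3 MYCN OFF), edgeR and voom called 0 of all 15690 genes tested, and an unadjusted edgeR p below 0.05 was held by 24.4% of the chain genes and 24.8% of all genes. DESeq2 called 10 of the chain genes higher (11.1%) and 0 lower, where it called 8.18% and 7.78% of all genes.

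Reads of all 92 genes summed to 8283, 8809, 8662 and 8533 CPM in the MYCN OFF tumors and to 10397 (lowest), 11779 (median) and 13394 (highest) CPM in the MYCN ON tumors. The groups did not overlap on this scale, and the ratio of the means was 1.40. As a plain share of counted reads the genes took 0.904%, 0.959%, 1.05% and 1.02% of the MYCN OFF libraries and 1.01% to 1.34% of the MYCN ON libraries, and there the groups overlapped. Within the summed reads the balance between complexes differed in a way that scaling cannot change. Complex V made up 33.7%, 38.6%, 35.5% and 33.0% of the reads of the 92 genes in MYCN OFF tumors and 39.4% to 41.0% in MYCN ON tumors, and complex I 28.3%, 27.5%, 28.1% and 29.2% against 24.9% to 25.7%. Neither share overlapped between the groups, and no test was made of them. The shares have a common total, so a larger part for 1 complex makes the others smaller. Whether the level of complex I differed depended on the scaling. With TMM factors its summed reads were at 2342 to 2488 CPM in MYCN OFF and 2658 to 3437 CPM in MYCN ON tumors. As a share of counted reads it took 0.256% to 0.296% against 0.254% to 0.340%, with overlap and means of 0.278% and 0.280%. The MYCN ON median was 0.274%, and MYCN ON tumor 5 was the highest. By library totals the median log2 fold change of complex I was -0.12, with 3 genes higher and 5 lower. Without Atp5a1 and Atp5b, the 2 most abundant of the genes, complex V took 22.9% to 23.5% in MYCN OFF and 23.6% to 26.8% in MYCN ON tumors. With both left out of the total, the complex I shares of the groups overlapped, since MYCN ON tumor 1 lay just above MYCN OFF tumor 1. Complex V was also higher without overlap as a share of all counted reads, at 0.413% to 0.529% in MYCN ON against 0.305% to 0.374%.

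**Figure D3:**
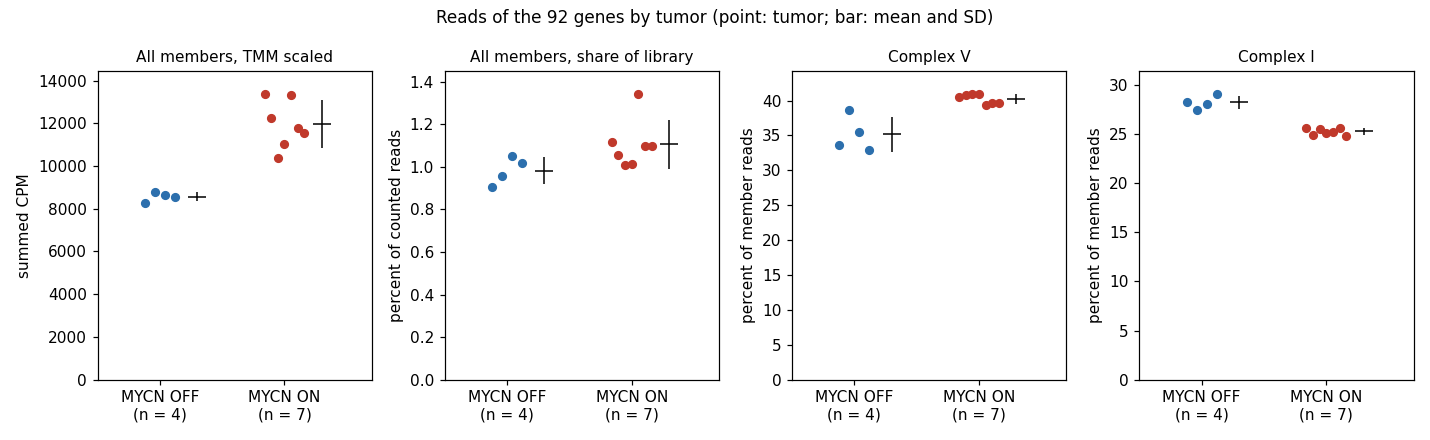
Summed reads per tumor (points) with mean and SD (bars) for MYCN OFF (blue, n = 4) and MYCN ON (red, n = 7): summed CPM of all 92 genes, their percent of counted reads, and the percent of their reads that fell on complex V and on complex I. The MYCN ON tumors lie above all MYCN OFF tumors for summed CPM and for complex V, below them for complex I, and overlap them as a percent of counted reads.

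Short stretches before the start sites are shown for 7 genes that hold a motif searched: 6 higher genes and Sdha, which was not called. No lower gene is shown. The E-boxes shown are all of higher genes, while those of the uncalled genes Atp5l, Atp5sl and Ndufv1 are not shown. The sequences are RefSeq's for the mouse build GRCm38.p6, while the reads were aligned to mm9. They are printed 5′ to 3′ on the gene's strand, with the motif named for each in capitals. The first 3 belong to the genes that encode the same c subunit of the ATP synthase, whose values follow below.
Atp5g1 at chr11:96075658-96075687, minus strand, with an E-box: agggactccgaaCACGTGggtgggggagct
Atp5g2 at chr15:102671070-102671099, minus strand, with an NRF1 motif: ggctccggccGCGCATGCGCagagccttcc
Atp5g3 at chr2:73911487-73911576, minus strand, with an E-box: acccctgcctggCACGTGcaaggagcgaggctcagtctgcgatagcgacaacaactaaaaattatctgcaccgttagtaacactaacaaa
Ndufa7 at chr17:33824488-33824517, plus strand, with an E-box: gcggagaggagtCACGTGagcaggggatgc
Ndufaf4 at chr4:24897930-24898019, plus strand, with an NRF1 motif: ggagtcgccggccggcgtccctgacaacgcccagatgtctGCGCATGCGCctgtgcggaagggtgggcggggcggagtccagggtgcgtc
Sdhd at chr9:50603909-50603938, minus strand, with an NRF1 motif: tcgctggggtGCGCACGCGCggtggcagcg
Sdha at chr13:74350319-74350348, minus strand, with an NRF1 motif: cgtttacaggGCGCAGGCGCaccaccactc

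The motifs in capitals begin 44, 42, 238, 72, 113, 79 and 98 bases before the annotated start, in that order. The Ndufaf4 stretch also holds GC boxes (GGGCGG), left in lower case. The window of Sdha holds further NRF1 motifs nearer the start, outside the stretch shown. Annotated exons overlap 5 of the stretches: an exon of Atp5g1 and of Atp5g2 themselves, of Rps28 beside Ndufa7, of Timm8b beside Sdhd and of Ccdc127 beside Sdha. A window of 300 bases, 250 before to 50 after the start, was found for 76 of the 92 genes and searched on both strands. The E-box CACGTG was in 9.21% of the 76 and in 8.09% of all 27025 genes with a window. It was in 14.8% of the 27 higher genes with a window (Atp5f1, Atp5g1, Atp5g3 and Ndufa7) and in 6.52% of the 46 that were tested and not called (Atp5l, Atp5sl and Ndufv1). The NRF1 motif, the run in capitals above with any base as the sixth letter, was in 23.7% of the 76 and in 5.19% of all genes, at 22.2% of the higher and 26.1% of the uncalled genes. The GABP motif CCGGAAG was in 25% of the 76 and in 9.93% of all genes, at 11.1% of the higher and 34.8% of the uncalled genes. The YY1 motif AAGATGGCG was in 10.5% against 1.64%, and the GC box GGGCGG in 46.1% against 38.2%. Matches of different motifs overlapped in 1 gene, Ndufs3. The 27025 genes with a window were not limited to the 15237 genes tested, so they are an unlike background for the chain genes. A match is a run of letters, and no binding was measured.

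Complex I takes electrons from NADH. Among the nuclear core subunits, which carry the redox centers, 2 were higher in MYCN ON: Ndufv2, the iron-sulfur subunit next to the NADH-binding site, and Ndufs1, the largest iron-sulfur subunit. Ndufv2 had the smallest p of the complex. It was at 104, 86.3, 84.7 and 89.7 CPM in the MYCN OFF tumors and at 169 (lowest), 189 (median) and 276 (highest) CPM in the MYCN ON tumors. Every MYCN ON tumor was well above every MYCN OFF tumor, with MYCN ON tumor 1 highest. Its log2 fold change was 1.11 with a standard error of 0.16 (edgeR adjusted p = 0.0012). Ndufs1 was at 87.5, 105, 89.7 and 73.9 against 115, 128 and 143 CPM, also without overlap, and its log2 fold change was 0.53 (standard error 0.13, adjusted p = 0.0125 by edgeR). By library totals the log2 fold change of Ndufs1 was 0.22 and was not called.

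Ndufs3, Ndufv1 and Ndufs8 overlapped between the groups and were not called. Ndufs3 was at 67.8, 59.6, 52.8 and 61.4 CPM in MYCN OFF and 64.7, 79.3 and 105 CPM in MYCN ON tumors, with a log2 fold change of 0.42. Ndufv1, which binds NADH, was at 76.7, 76.7, 114 and 83.9 against 59.4, 117 and 157 CPM (log2 fold change 0.33). Ndufs8, an iron-sulfur subunit, was at 47.7, 28.2, 49.996 and 36.0 against 32.3, 42.8 and 77.2 CPM (log2 fold change 0.22). Ndufs7, the iron-sulfur subunit nearest ubiquinone, went the other way at 59.5, 81.0, 55.8 and 70.7 CPM in MYCN OFF and 41.9, 52.6 and 59.2 CPM in MYCN ON tumors. Its log2 fold change of -0.40 (edgeR adjusted p = 0.0787) was not called with TMM factors, and it was called lower with RLE factors, upper quartile factors, library totals and DESeq2. The core subunits named spanned log2 fold changes from -0.40 to 1.11.

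Of the 29 accessory subunits of complex I, 8 (27.6%) were higher and 0 lower with TMM factors. Of all genes, 16% were higher and 13.4% lower. The 8 were Ndufa12, Ndufa10, Ndufab1, Ndufc2, Ndufs4, Ndufa9, Ndufb5 and Ndufa7, with log2 fold changes of 0.47 to 0.83. By library totals only Ndufa10 and Ndufab1 of the 8 stayed higher, and Ndufa1, Ndufa6, Ndufa13 and Ndufs5 were called lower. With that scaling 8.64% of all genes were higher and 22% lower. Ndufab1 encodes the mitochondrial acyl carrier protein, which also serves fatty acid and lipoic acid synthesis, and was at 46.9 ± 5.20 CPM (SD, n = 4) in MYCN OFF and 82.9 ± 14.4 CPM (SD, n = 7) in MYCN ON tumors. Ndufa10 was at 69.4, 73.9, 61.2 and 49.0 against 89.5, 110 and 133 CPM, and its log2 fold change was 0.83 (standard error 0.17, adjusted p = 0.00493 by edgeR). Ndufa12, which replaces an assembly factor late in assembly, was at 62.0, 69.0, 74.5 and 80.8 against 102, 118 and 136 CPM, and its log2 fold change was 0.72 (standard error 0.13, adjusted p = 0.00296 by edgeR). Neither overlapped between groups. By library totals Ndufa12 just missed the threshold (edgeR adjusted p = 0.0521). Ndufa7 and Ndufb5 were the least secure of the 8, kept in 1 and 2 of the 11 fits without 1 tumor.

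The remaining 21 accessory subunits had log2 fold changes of -0.80 to 0.55. Ndufb6, at 0.55, did not overlap between groups and missed the threshold (edgeR adjusted p = 0.0512). At the other end Ndufa2 had the largest p of the complex, at 60.8, 80.5, 69.8 and 52.6 CPM in MYCN OFF and 52.4, 63.3 and 94.1 CPM in MYCN ON tumors, and the groups overlapped fully. Ndufa13, Ndufa1 and Ndufs5 had the most negative values, -0.34, -0.44 and -0.80, and were not called with TMM factors; all 3 were called lower by library totals. Ndufs5 had 185 reads over all tumors, at 1.12 CPM in MYCN ON and 1.95 CPM in MYCN OFF, far under the other complex I genes, and its values are uncertain.

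Complex II, the succinate dehydrogenase, links the citric acid cycle to the chain and has 4 subunits, all nuclear. The membrane anchors Sdhd and Sdhc were higher in MYCN ON, and the catalytic subunits Sdha and Sdhb were not called. Sdhd was at 93.1, 75.4, 82.2 and 92.5 CPM in MYCN OFF and 123 (lowest), 134 (median) and 165 (highest) CPM in MYCN ON tumors. The groups did not overlap, and the log2 fold change was 0.70 (standard error 0.14, adjusted p = 0.00429 by edgeR). Sdhc was at 70.5, 57.6, 55.2 and 49.0 against 68.1, 80.7 and 88.1 CPM. MYCN ON tumor 1 lay below MYCN OFF tumor 1, and the log2 fold change was 0.45 (standard error 0.14, adjusted p = 0.0329 by edgeR), a call kept in 3 of the 11 fits without 1 tumor. Sdha, which holds the flavin and the succinate site, was at 189, 208, 156 and 224 against 176, 199 and 217 CPM. Its range in MYCN ON lay inside that in MYCN OFF, and its log2 fold change was 0.05 (SE 0.13). The iron-sulfur subunit Sdhb was at 114, 155, 140 and 84.2 against 133, 163 and 212 CPM, with a log2 fold change of 0.44 (standard error 0.20, adjusted p = 0.109 by edgeR). The difference between anchors and catalytic subunits was not tested. By library totals 0 of the 4 genes were called.

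In complex III the higher genes were Uqcrfs1, the Rieske iron-sulfur protein that takes electrons from ubiquinol, Uqcrc2, a core protein, and Uqcrh, the hinge protein. Uqcrfs1 had the smallest p of all 90 genes. It was at 81.1, 85.7, 78.1 and 93.8 CPM in MYCN OFF and at 133 (lowest), 173 (median) and 186 (highest) CPM in MYCN ON tumors. The groups were far apart, and the log2 fold change was 0.99 (standard error 0.14, adjusted p = 0.000973 by edgeR), or 0.68 by library totals. Uqcrc2 was at 142, 137, 135 and 125 against 179, 208 and 304 CPM, with a log2 fold change of 0.69 (standard error 0.16, adjusted p = 0.0102 by edgeR) that was not called with a lung or a muscle score. Uqcrh was at 134, 92.7, 130 and 112 against 140, 161 and 212 CPM, with a log2 fold change of 0.56 (standard error 0.16, adjusted p = 0.0232 by edgeR).

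Uqcrc1, the partner of Uqcrc2 in the core, was at 90.2, 162, 107 and 126 CPM in MYCN OFF and 68.0, 143 and 161 CPM in MYCN ON tumors. It varied within both groups, and its log2 fold change was 0.05 (SE 0.26). The 4 small subunits Uqcrb, Uqcrq, Uqcr10 and Uqcr11 had log2 fold changes of -0.27 to 0.38 and were not called. Uqcr10 was at 64.1, 96.7, 87.8 and 114 against 64.3, 99.7 and 109 CPM, nearly the same range in each group.

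With TMM factors the calls in complex IV differed by kind of subunit, beside 16% of all genes higher and 13.4% lower. Of the 11 general subunits, 6 were higher in MYCN ON (Cox5a, Cox5b, Ndufa4, Cox7c, Cox7b and Cox6b1) and 0 lower. Of the 6 tissue isoforms tested, 3 were lower (Cox6b2, Cox6a2 and Cox4i2) and 0 higher. By library totals Cox5a alone was higher, and the same 3 isoforms were lower. With a lung or a muscle score Cox6b2 was the only isoform still lower. Cox5a was at 88.8, 71.4, 68.8 and 70.3 CPM in MYCN OFF and 132 (lowest), 154 (median) and 226 (highest) CPM in MYCN ON tumors. The groups did not overlap, MYCN ON tumor 5 was highest, and the log2 fold change was 1.11 (standard error 0.17, adjusted p = 0.00139 by edgeR), or 0.81 by library totals. Ndufa4 was at 129, 83.6, 117 and 134 against 174, 208 and 341 CPM, also highest in MYCN ON tumor 5, with a log2 fold change of 0.94 (standard error 0.21, adjusted p = 0.00837 by edgeR). Cox5b, a zinc-binding subunit, was at 95.5, 111, 112 and 103 against 142, 149 and 169 CPM. Its spread was narrow in each group, and its log2 fold change was 0.52 (standard error 0.12, adjusted p = 0.00834 by edgeR).

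Cox6b1, which holds the enzyme's dimer together, was at 136, 109, 121 and 121 against 126, 179 and 264 CPM; MYCN ON tumor 3 fell within the MYCN OFF range. Its log2 fold change of 0.58 (standard error 0.18, adjusted p = 0.0337 by edgeR) was kept in 4 of the 11 fits without 1 tumor. Cox4i1, the most abundant complex IV gene per kilobase of transcript, was not called: it was at 360, 282, 308 and 271 CPM in MYCN OFF and 238, 372 and 543 CPM in MYCN ON tumors, with a log2 fold change of 0.30 (SE 0.21). Cox6a1, Cox7a2 and Cox8a, with log2 fold changes of 0.24, 0.24 and 0.18, overlapped between groups, at 133 to 202, 92.7 to 145 and 67.6 to 138 CPM in MYCN OFF and 144 to 258, 65.3 to 179 and 71.7 to 166 CPM in MYCN ON tumors. Cox6c was at 156, 139, 185 and 183 against 128, 157 and 250 CPM, and only MYCN ON tumor 5 lay above the MYCN OFF tumors.

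The tissue isoforms were below their general forms in every tumor, though Cox6a2 reached 21.1% of the Cox6a reads in MYCN OFF tumor 2. Those of Cox6a and Cox4 were highest in the MYCN OFF tumors with the most markers of another tissue. Cox6a2, the form typical of heart and skeletal muscle, was at 13.4, 37.5, 16.1 and 4.41 CPM in MYCN OFF tumors 1 to 4 and 0.314 (lowest), 2.57 (median) and 7.57 (highest) CPM in MYCN ON tumors. The order in MYCN OFF tumors nearly follows their summed muscle markers, tumor 2 highest and tumor 4 lowest in both, and the highest MYCN ON tumor, tumor 5, also had the most muscle markers of its group. The other MYCN ON tumors did not follow that order: tumors 7 and 6 had 7.28 and 6.07 CPM of Cox6a2 with marker sums of 101 and 93.6 CPM, and tumor 2, with a sum of 187, had 2.57. The log2 fold change was -2.20 (standard error 0.73, adjusted p = 0.0419 by edgeR). With a muscle score in the model it was -0.95 (edgeR adjusted p = 0.451), and without MYCN OFF tumor 2 it was -1.53 (edgeR adjusted p = 0.142). The call was also lost without MYCN ON tumor 1, 2 or 4 and without MYCN OFF tumor 1 or 3, and was kept in 5 of the 11 fits.

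Cox4i2, a form known from lung and placenta, was at 15.2, 0.396, 3.65 and 4.97 CPM in MYCN OFF and 0.443, 1.36 and 2.50 CPM in MYCN ON tumors. MYCN OFF tumor 1, with the most lung markers, was highest, and MYCN OFF tumor 2, with the fewest of its group, was the lowest of all 11. Among MYCN ON tumors the highest values, 2.50 and 2.12 CPM, were in tumors 5 and 3, which had the most lung markers. Tumor 4, with a lung marker sum of 17.0, had 1.68. MYCN OFF tumor 1 also had the highest endothelial, leukocyte and pericyte and smooth muscle sums, at 869, 492.5 and 575 CPM. MYCN ON tumor 4 had the highest endothelial and pericyte and smooth muscle sums of its group, at 379 and 383.5 CPM. MYCN OFF tumor 4 had the smallest pericyte and smooth muscle sum of its group, 196 CPM, and 4.97 CPM of Cox4i2. Which cell types carried Cox4i2 was not tested. The log2 fold change of -2.14 (standard error 0.74, adjusted p = 0.0465 by edgeR) became 0.15 (edgeR adjusted p = 0.931) with a lung score and -1.13 (edgeR adjusted p = 0.281) without MYCN OFF tumor 1. It was kept in 2 of the 11 fits without 1 tumor, those without MYCN ON tumor 5 or MYCN OFF tumor 2. Cox6b2, a form known from testis and sperm, behaved otherwise: it was at 5.44, 6.84, 3.92 and 4.78 against 0.624, 1.15 and 1.73 CPM. The groups did not overlap, and MYCN OFF tumor 2, with few lung markers, and tumor 4, with few muscle markers, were as high as the rest. Its log2 fold change was -2.06 (standard error 0.37, adjusted p = 0.00263 by edgeR), and -2.22 and -2.14 with the lung and the muscle score.

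**Figure D4:**
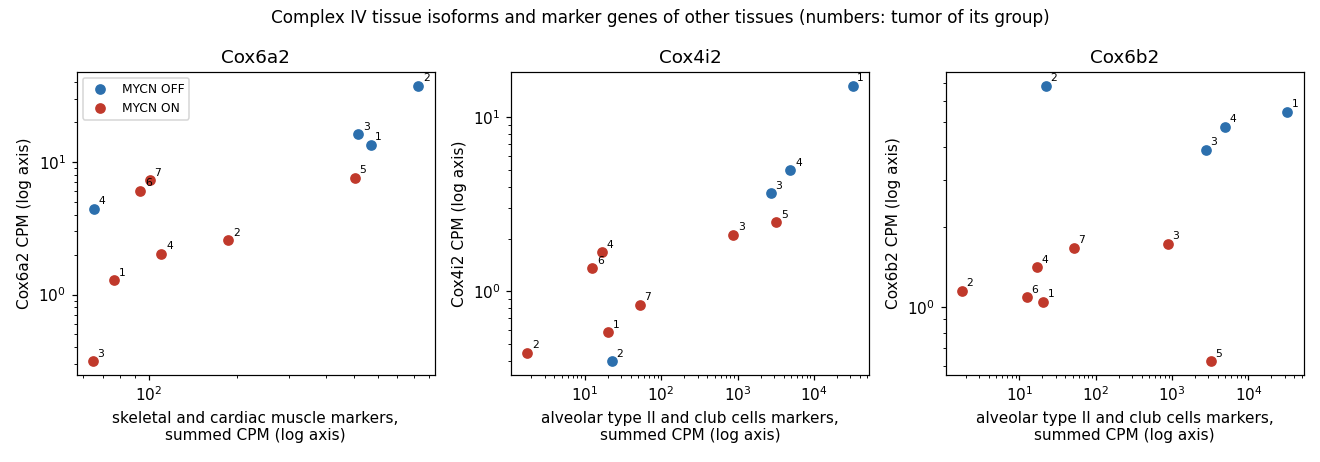
CPM of Cox6a2, Cox4i2 and Cox6b2 (log axes) against summed marker CPM (log axes) of muscle for Cox6a2 and of alveolar type II and club cells for Cox4i2 and Cox6b2; each point is a tumor, blue MYCN OFF and red MYCN ON, with its number. Cox6a2 and Cox4i2 are highest in the MYCN OFF tumors with the most markers, MYCN OFF tumors 2 and 1, while Cox6b2 is at 3.92 to 6.84 CPM in all MYCN OFF tumors and at 0.624 to 1.73 CPM in all MYCN ON tumors.

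The remaining tissue isoforms overlapped between groups: Cox7a1 at 0.272 to 3.47 CPM, Cox8b at 0 to 6.0 CPM and Ndufa4l2, known as a target of hypoxia signaling, at 1.59 to 9.79 CPM over the 11 tumors. Within a subunit the share of an isoform does not depend on scaling. Cox6a2 made up 9.20%, 21.1%, 8.15% and 2.13% of the Cox6a reads in MYCN OFF and 0.217% to 3.69% in MYCN ON tumors. Its mean share was 10.1% ± 7.92 (SD, n = 4) against 1.89% ± 1.39 (SD, n = 7), with a two-sided exact permutation p of 0.0121 and 0.0636 after adjustment over the 6 isoform shares tested. The smallest p that 4 of 11 tumors allow is 0.00303. Cox4i2 had mean shares of 1.79% and 0.395% (exact permutation p = 0.0212, adjusted 0.0636), and Ndufa4l2 of 4.95% and 2.41% of its pair (exact permutation p = 0.0424, adjusted 0.0727). The shares of Cox7a1 and Cox8b had exact permutation p-values of 0.188 and 0.694. None of the 6 shares passed after adjustment.

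Complex V, the ATP synthase, had the highest median of the 5 complexes, and all 15 of its log2 fold changes were above 0 with TMM, RLE and upper quartile factors, but 11 of 15 by library totals. The 8 higher genes came from the catalytic head and central stalk (Atp5a1, Atp5b and Atp5c1), the peripheral stalk (Atp5o and Atp5f1) and the membrane ring of c subunits (Atp5g1, Atp5g2 and Atp5g3). Atp5b, the catalytic beta subunit, had the highest level per kilobase of the 92 genes, at 732 CPM per kb in MYCN ON. It was at 631, 1084, 867 and 695 CPM in MYCN OFF and 1278 (lowest), 1353 (median) and 1760 (highest) CPM in MYCN ON tumors. MYCN ON tumor 1 stood apart at the top, the groups did not overlap, and the log2 fold change was 0.78 (standard error 0.18, adjusted p = 0.00837 by edgeR). With a lung score it was not called (edgeR adjusted p = 0.0626). Atp5a1, the alpha subunit, was at 519, 711, 552 and 361 against 866, 936 and 1196 CPM, with a log2 fold change of 0.87 (standard error 0.19, adjusted p = 0.00637 by edgeR). Atp5c1, the gamma subunit that turns within the head, was at 178, 145, 158 and 140 against 215, 280 and 305 CPM, with a log2 fold change of 0.78 (standard error 0.14, adjusted p = 0.00278 by edgeR). Atp5o, the oligomycin sensitivity protein of the stalk, was at 135, 141, 150 and 112 against 215, 258 and 311 CPM, with a log2 fold change of 0.92 (standard error 0.15, adjusted p = 0.0017 by edgeR). The groups did not overlap for any of these 4 genes.

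The other head subunits, Atp5d and Atp5e, had log2 fold changes of 0.22 and 0.28. Atp5e, with the largest p of the complex, was at 88.0, 89.2, 82.6 and 108 against 70.7, 109 and 152 CPM, and MYCN ON tumor 3 lay below all MYCN OFF tumors. The membrane subunits Atp5l, Atp5j2 and Atp5k had values of 0.74, 0.33 and 0.25 and the stalk subunits Atp5j and Atp5h of 0.38 and 0.31, and none was called. Gamma and epsilon, the products of Atp5c1 and Atp5e, are present in equal copies in the enzyme and had log2 fold changes of 0.78 and 0.28; that difference was not tested.

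The c ring is made from a single mature protein encoded by 3 genes that differ in their import sequences. Atp5g1, known as the regulated one, was at 53.8, 72.6, 66.2 and 60.1 CPM in MYCN OFF and 104 (lowest), 112 (median) and 126 (highest) CPM in MYCN ON tumors. The groups were far apart, and the log2 fold change was 0.87 (standard error 0.13, adjusted p = 0.00142 by edgeR). Atp5g3 was at 136, 124, 147 and 182 against 191, 205 and 336 CPM, highest in MYCN ON tumor 5, with a log2 fold change of 0.58 (standard error 0.19, adjusted p = 0.0378 by edgeR). Atp5g2 was at 147, 164, 138 and 165 against 151, 231 and 269 CPM, with MYCN ON tumor 4 inside the MYCN OFF range and a log2 fold change of 0.53 (standard error 0.17, adjusted p = 0.0379 by edgeR). The last pair of calls were each kept in 3 of the 11 fits without 1 tumor, and that of Atp5g1 in 11. Atp5g1 took 16%, 20.1%, 18.8% and 14.8% of the reads of the 3 genes in MYCN OFF and 18.4% to 24.6% in MYCN ON tumors. The mean share was 17.4% ± 2.49 (SD, n = 4) against 20.9% ± 2.29 (SD, n = 7), with a two-sided exact permutation p of 0.0485 and 0.0727 after adjustment. The stretches shown above hold an E-box for Atp5g1 and Atp5g3 and an NRF1 motif for Atp5g2; the window of Atp5g3 also holds an NRF1 motif.

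**Figure D5:**
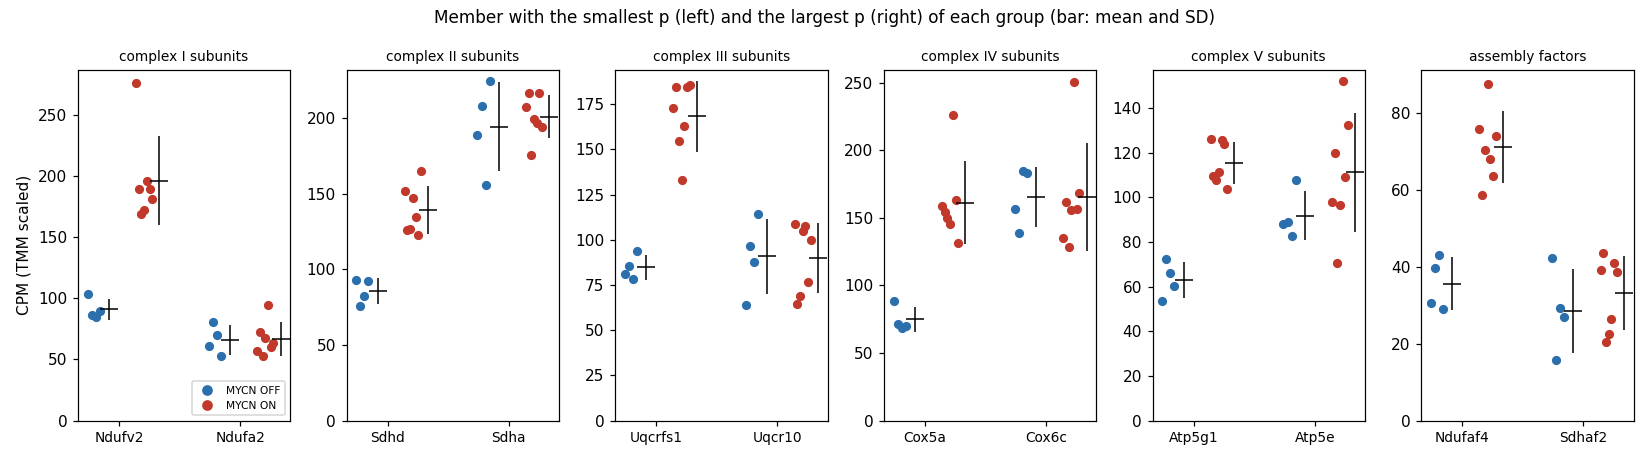
CPM per tumor for the gene with the smallest p (left of each panel) and the largest p (right) in each complex and among the assembly factors, MYCN OFF blue (n = 4) and MYCN ON red (n = 7), bars mean and SD. The left-hand genes separate the groups (Ndufv2, Sdhd, Uqcrfs1, Cox5a, Atp5g1 and Ndufaf4) and the right-hand genes overlap (Ndufa2, Sdha, Uqcr10, Cox6c, Atp5e and Sdhaf2).

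Of the 8 assembly factors, Ndufaf4 and Cox7a2l were higher and Ndufaf3 was lower. Ndufaf3 and Ndufaf4 are partners in an early step of complex I assembly, and they went in opposite directions. Ndufaf4 was at 30.4, 39.5, 43.1 and 29.1 CPM in MYCN OFF and 58.7 (lowest), 70.2 (median) and 87.6 (highest) CPM in MYCN ON tumors, a log2 fold change of 1.0 (standard error 0.17, adjusted p = 0.00206 by edgeR). Ndufaf3 was at 25.6, 36.1, 27.4 and 42.2 against 9.58, 16.2 and 18.3 CPM, a log2 fold change of -1.08 (standard error 0.22, adjusted p = 0.00502 by edgeR). Neither gene overlapped between groups. Each kept its call in all fits without 1 tumor, under the 4 scalings and with either marker score. By library totals the log2 fold changes were 0.69 and -1.40.

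Cox7a2l, which helps complexes III and IV join into supercomplexes, was at 164, 84.3, 112 and 117 against 133, 209 and 273 CPM. The groups overlapped, and the log2 fold change of 0.74 (standard error 0.25, adjusted p = 0.0451 by edgeR) was kept in 3 of the 11 fits without 1 tumor and with neither marker score. Ndufaf1, Ndufaf2, Atp5sl, Sdhaf1 and Sdhaf2 had log2 fold changes of 0.21 to 0.53 and were not called. Cox4nb and Atp5s, the genes that match by name alone, had 0.35 and -0.26 and were not called.

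Tumors of a group did not vary alike. MYCN ON tumor 5 had the highest value of all 11 tumors for 31 of the 90 genes and MYCN ON tumor 1 for 19. MYCN OFF tumor 2 had the lowest value for 21 genes, MYCN ON tumor 3 for 17 and MYCN OFF tumor 1 for 15. Relative to the mean of all tumors, the median gene was at 0.32 log2 in MYCN ON tumor 5, 0.21 in tumor 1 and -0.08 in tumor 3, and at -0.26 to -0.17 in the MYCN OFF tumors. MYCN ON tumor 5, highest in many complex IV genes, also had the most lung and muscle markers of its group, and their part in these values was not tested.

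Counting bears on these values. Reads that aligned to several places were not counted for a gene, and they made up 13.8% to 20.9% of records in MYCN ON and 9.15% to 11.9% in MYCN OFF tumors, without overlap. Many genes of the chain have processed pseudogenes in the genome, so that part of their reads can be lost in this way, and the part of this difference in the results was not tested. In GENCODE M21 annotation 22 of the 92 genes share exon bases with another protein-coding gene, and whether reads were counted by strand is not given in the sources used here. The shared part of exon bases ran from 0.71% to 69.6% and was largest for Sdhaf1, Ndufb6 (39%) and Ndufa13 (30%), which were not called. Among called genes it was 26.6% for Uqcrc2 (with Pdzd9), 25.5% for Atp5o (with Donson), 21% for Atp5f1 (with Wdr77), 12.2% for Ndufb5 (with Mrpl47), 10.3% for Cox6a2 (with Itgad), 4.44% for Atp5a1 (with Haus1) and 3.23% for Ndufaf3 (with Impdh2). Transcripts of the chain are short, with a median of 868 bases over the tested genes against 2889 over all tested genes with a length. Across the 90 genes the log2 fold change had a Pearson r of 0.28 and a Spearman rho of 0.30 with log transcript length, and 0.39 and 0.24 with log level per kilobase in MYCN OFF. These are descriptions over genes that share the same 11 libraries.

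Other genes of oxidative metabolism were counted from lists of known members, to be read beside the 16% of all genes that were higher and the 13.4% that were lower with TMM factors, and beside 8.64% and 22% by library totals. In the citric acid cycle and pyruvate dehydrogenase list 10 of 19 genes were higher and 2 lower, with a median log2 fold change of 0.58. Idh3a, the catalytic subunit of the NAD-dependent isocitrate dehydrogenase, was at 82.3, 137, 97.0 and 76.8 CPM in MYCN OFF and 158, 168 and 189 CPM in MYCN ON tumors, without overlap (log2 fold change 0.81, SE 0.17). Pdhb, of pyruvate dehydrogenase, and Idh2 had log2 fold changes of 1.04 each. The lower genes were Ogdh, of the 2-oxoglutarate dehydrogenase, at -0.63, and Pcx, the pyruvate carboxylase, at -1.48. The list had 4 higher and 2 lower genes by library totals.

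Among genes of mitochondrial biogenesis and genome expression 6 of 16 were higher and 0 lower, with a median of 0.65. Pprc1, a coactivator of the PGC-1 family known to respond to growth signals, had the largest change of the list: it was at 23.7, 20.9, 38.6 and 17.0 CPM in MYCN OFF and 37.3 (lowest), 92.6 (median) and 103 (highest) CPM in MYCN ON tumors. MYCN ON tumor 5, the lowest, lay just under MYCN OFF tumor 3, and the log2 fold change was 1.71 (standard error 0.31, adjusted p = 0.00267 by edgeR). Its relative Ppargc1a, which encodes PGC-1alpha, ranged from 3.38 to 48.8 CPM in MYCN OFF and from 3.26 to 79.7 CPM in MYCN ON tumors, with a log2 fold change of -0.06 (SE 0.84). Peo1, the helicase of the mitochondrial genome, Gabpa, the DNA-binding subunit of GABP, and Tfam, which packages mitochondrial DNA, rose by 1.10, 1.11 and 0.69 on the log2 scale without overlap; Tfam was at 50.02, 68.5, 63.0 and 64.8 against 84.0, 98.1 and 117 CPM. Nrf1 had a log2 fold change of 0.29 and was not called. By library totals 3 of the 16 genes were higher.

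Assembly factors named outside the symbol rule gave 2 higher of 6 for complex I (Tmem186 and Acad9), 0 of 4 for complex III, 4 of 12 for complex IV (Lrpprc, Fastkd2, Sco1 and Cox19) and 2 of 3 for the ATP synthase (Tmem70 and Atpaf1), with 0 lower. Lrpprc, which stabilises mitochondrial messenger RNA, was at 83.2, 93.3, 93.6 and 70.4 against 116, 177 and 232 CPM, and Fastkd2, which acts on mitochondrial ribosomal RNA, at 16.6, 14.7, 14.3 and 14.1 against 16.7, 30.5 and 47.5 CPM. Their log2 fold changes were 1.04 and 1.06. Sco1, a copper chaperone of complex IV, and Tmem70, needed to assemble the ATP synthase, had 0.68 and 0.96. Of the mobile carriers and related genes 1 of 9 was higher, a share under that of all genes: Atpif1, the inhibitor of the ATP synthase, with a log2 fold change of 0.60. It was at 142, 206, 267 and 200 against 263, 313 and 348 CPM. Cycs, which encodes cytochrome c, was at 119, 152, 175 and 133 against 147, 209 and 285 CPM, and Cyc1, the cytochrome c1 of complex III, at 75.7, 109.97, 88.0 and 89.6 against 87.6, 125 and 151 CPM. Both overlapped between groups, had log2 fold changes of 0.50 and 0.40 and were not called. By library totals these lists had 0, 0, 2, 1 and 0 higher genes.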

How the data were processed

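The 11 tumors were profiled by RNA sequencing of poly(A) RNA with the NEBNext Ultra kit, per the labels' protocols. Per the submitters' processing notes the build was mm9 and the tools included HTSeq 0.6.1, TopHat2 2.0.8b and bcl2fastq 1.8.4; the gene annotation and strandedness are not given in the sources used here. The authors deposited unnormalized counts of reads for 23284 gene symbols in each tumor. The 5 summary entries of each file were left out of library totals and fits; unannotated reads were 14.8% to 21.5% of records, and reads at several places 9.15% to 20.9%.

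The fit used edgeR 4.0.16 under R 4.3.3: filterByExpr by group (minimum count 10, minimum total 15) left 15237 genes, TMM factors scaled the libraries, and a robust quasi-likelihood fit compared the groups with no covariate. A call required a Benjamini-Hochberg value below 0.05 over all genes tested. Standard errors are the size of the log2 fold change divided by the root of its F statistic. The biological coefficient of variation was 53.7%. On simulated counts for the 15237 genes with 200 changed, 8% of 2-fold and 54% of 4-fold changes were recovered and 6.06% of calls were false. The tumors gave many more calls, 2437 higher and 2038 lower. The adjustment was therefore stricter in the simulation, and its recovery does not carry over to the tumors. Tumors of a group all differed by more than sampling noise (chi-square per gene at least 53.8 over 27 pairs).

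Isoform shares, percent of the reads of a subunit's genes, were compared by two-sided exact permutation of 330 groupings. Lengths are medians of principal transcripts in GENCODE M21, and promoter windows are RefSeq's for GRCm38.p6, another build than that of the reads. Alternatives were 3 other scalings, DESeq2 1.42.0, limma 3.58.1 voom, other filters, an adjusted p below 0.01, a replicate block, lung and muscle scores, each tumor left out and, chosen after seeing the data, subsets by Sftpc.

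The genes, lists and tests were chosen with earlier results of these data known. Values per tumor follow a rule: in each complex and among the assembly factors the 3 genes with the smallest p and the 1 with the largest, every gene called lower, complex II, catalytic and core subunits, isoforms of complex IV and of the c ring, up to 3 called genes per pathway list, and Mycn, Cyc1, Cycs, Atpif1, Ppargc1a and Tfam; some isoforms and list genes are given by range or log2 fold change alone. Ndufab1, Ndufa6, Ndufb6, Nrf1, Ogdh, Pcx and Cox19 were named after their values were seen. The values of 1 gene are not reported here.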

Additional observations from a re-analysis of the deposited data

Results flagged for a closer look

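In 13 of 116 groups of per-tumor values, the highest or lowest tumor stood apart from the rest of its group by Dixon's ratio at its 95% critical value; chance alone gives about 1 in 20. MYCN ON tumor 5 was the highest of its group for 5 genes: Cox5a (226.5 CPM), Cox6b1 (263.5 CPM), Cox6c (250.4 CPM), Ndufa4 (341.1 CPM) and Atp5g3 (336.4 CPM). The first 4 are complex IV genes. MYCN ON tumor 1 was the highest for Ndufv2 (275.8 CPM), Uqcrc2 (304.5 CPM) and Atp5b (1760 CPM). MYCN ON tumor 4 was the highest for Cox8b (5.996 CPM) and for its share of Cox8a and Cox8b reads (7.312%). MYCN ON tumor 3 was the lowest for Ndufaf3 (9.579 CPM). Among MYCN OFF tumors, tumor 2 was the lowest for summed complex IV reads (1280 CPM), and tumor 1 was the highest for Cox5a (88.75 CPM).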

How the results depend on the processing

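All 31 higher genes had a log2 fold change above 0 under each alternative run, and Cox6b2 and Ndufaf3 one below 0, but they were chosen on the same tumors. Where a count or direction changed below, the cause was not tested. Upper quartile factors left 15 higher genes (4, 1, 2 in complexes I, II and IV, 5 in complex V, 1 assembly factor), library totals 11 higher and 9 lower (3, 0, 1, 1 and 5 higher in complexes I to V, 1 assembly factor) and an adjusted p below 0.01 left 16 higher and 2 lower (4, 1, 1 and 3 in complexes I to IV, 1 assembly factor). At an adjusted p below 0.01 the shares were 17.8% and 2.22%, where 7.79% of all genes were higher and 3.39% lower. With the lung score 2 genes were lower (2.22%, where 3.44% of all genes were). It left 6 of complex I, 1 of complex II and 1 assembly factor higher. With the muscle score 2 were lower (2.22%, where 4.92% of all genes were) and 1 assembly factor higher. RLE factors left 1 of complex II and 1 assembly factor; no filter left 1 of complex II, 3 of complex IV and 1 assembly factor. DESeq2 called 30 higher (33.3%) and 5 lower (5.56%), where it called 17.5% and 19.2% of all genes. Voom called 31 (34.4%) and 3 (3.33%), against 16.5% and 12.1% of all genes. A filter at a mean of 1 CPM gave 32 (35.6%) and 4 (4.44%), against 16.1% and 13.8% of all genes. In either subset by Sftpc, an alternative chosen after seeing the data, edgeR and voom called 0 genes higher and 0 lower, 0 in each complex; DESeq2 called 8 and 2 under 100 CPM and 10 and 0 above.

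It is not clear whether the replicate numbers of the titles pair the tumors. Same-numbered tumors had correlations of -0.162, 0.462, -0.0763 and 0.265, and 2 of 4 MYCN ON tumors were closest to their own number. With the number as a replicate block 15 genes were higher (16.7%, where 12.3% of all genes were) and 3 lower (3.33%, where 7.56% of all genes were) (4, 1, 2 and 5 higher in complexes I, II, IV and V, 1 assembly factor). The numbers above 4 are held by MYCN ON tumors alone, so the contrast in this fit rests on 4 tumors of each group. With the replicate block Cox8a was at -0.059, Ndufa2 -0.079 and Uqcrc1 -0.18. Leaving out each tumor in turn gave 19 to 31 higher and 2 to 5 lower genes. Of all genes, 10.9% to 19.1% were higher and 6.59% to 15.7% lower in these fits. The higher genes were 6 to 10 in complex I, 1 to 2 in complex II, 3 to 6 in complex IV and 1 to 2 assembly factors. Complex I had 6 without MYCN ON tumor 1, and complex IV 3 without MYCN ON tumor 1 or MYCN OFF tumor 3. The lower genes numbered 2 without MYCN ON tumor 2 or 4 or MYCN OFF tumor 1 or 3. With reads per transcript length, with log2 ratios and without each tumor in turn, the lowest adjusted exact permutation p of an isoform share was 0.05, which is not below the threshold.

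The genes named next changed sign, and all of them except Cox4i2 were uncalled with TMM factors. Across the fits without 1 tumor the log2 fold change ran from -0.14 to 0.056 for Cox6c, -0.79 to 0.0090 for Cox7a1, -0.095 to 0.14 for Ndufa2, -0.39 to 0.092 for Ndufa4l2, -0.049 to 0.34 for Ndufs8, -0.70 to 0.41 for Ppargc1a, -0.046 to 0.13 for Sdha, -0.14 to 0.13 for Uqcr10 and -0.089 to 0.24 for Uqcrc1. With library totals Atp5e was at -0.030, Cox4i1 -0.011, Cox6a1 -0.086, Cox7a2 -0.076, Cox8a -0.15, Ndufa2 -0.28, Ndufs8 -0.12, Ndufv1 -0.0095, Sdha -0.26, Sdhaf2 -0.11 and Uqcrc1 -0.26. With the lung score Cox4i2 was at 0.15, Cox6c 0.20, Ndufa4l2 0.21, Ppargc1a 0.011, Sdha -0.040 and Uqcrc1 -0.17. Under 100 CPM of Sftpc Cox4i2 was at 1.26, Cox6c 0.14, Ndufa2 -0.36, Ndufa4l2 0.50, Sdha -0.030 and Uqcrc1 -0.32. With the muscle score Cox6c was at 0.12, Cox7a1 0.40, Cox8b 2.04, Ndufs8 -0.066, Ppargc1a 1.22 and Sdha -0.025. Above 100 CPM of Sftpc Cox6c was at 0.14, Cox7a1 0.23, Cox8a -0.35, Ndufs8 -0.20, Ndufv1 -0.19, Ppargc1a 1.13, Sdha -0.0049, Sdhaf2 -0.46 and Uqcr10 0.013. With upper quartile factors Cox8a was at -0.060, Ndufa2 -0.18, Ndufs8 -0.021, Sdha -0.16, Sdhaf2 -0.031 and Uqcrc1 -0.15. With RLE factors Ndufa2 was at -0.060, Sdha -0.032 and Uqcrc1 -0.021. With DESeq2 Ndufa2 was at -0.060, Sdha -0.031 and Uqcrc1 -0.021. With no filter Ndufa2 was at -0.042 and Sdha -0.013. Counting precision limits the genes near 1 CPM, such as Cox6b2, Cox4i2, Cox7a1, Cox8b and Ndufs5.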
